A study of Mus musculus with 8 samples.

Results

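The genes described here are genes of guanylyl cyclase D neurons, a non-canonical type of olfactory sensory neuron, genes of the Ms4a family and Trpm5. They were chosen by symbol, as rows of the array that the platform annotation assigns to a single gene among Gucy2d, Pde2a, Cnga3, Car2, Ms4a4a, Ms4a4b, Ms4a6c, Ms4a7 and Trpm5. All 9 were found, each in 1 row, out of 21789 rows with a single gene symbol and 23410 rows tested.

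The tissue was olfactory mucosa from mice at postnatal day 1, on a mixed background of the 129 and C57BL/6J strains. The Emx2 knockout was 123Cre:Emx2(fl/fl), with 2 floxed Emx2 alleles and Cre recombinase that acts once an olfactory sensory neuron (OSN) is immature, and had 4 arrays. The 4 control arrays came from littermates in which at most 1 allele could recombine, 2 of them from 123Cre:Emx2(fl/+) and 2 from Emx2(fl/fl) without Cre. Each array held RNA of whole mucosa, so fewer cells of a type and less RNA per cell cannot be told apart. The study's methods name OSNs as the cell type in which the floxed genes recombined. Recombination in guanylyl cyclase D neurons was not examined here. The methods take mice from several litters and both groups held arrays of either sex, so their spread is not technical alone. The labels tie no array to an animal, and p-values cover the variation among these arrays. Values are log2 expression as deposited, where a difference of 1 is a change of 2-fold, and all differences are knockout minus control.

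Most OSNs detect odors through odorant receptors and turn the signal into cAMP, which opens a channel built on Cnga2. A small population, the guanylyl cyclase D neurons, instead makes cGMP with Gucy2d, degrades it with the cGMP-stimulated phosphodiesterase Pde2a and opens a channel with the cGMP-sensitive subunit Cnga3. These neurons project to a ring of glomeruli known as the necklace, carry the carbonic anhydrase Car2 and use multi-pass membrane proteins of the Ms4a family as receptors. Trpm5 is a calcium-activated cation channel of taste cells, of microvillar cells of the olfactory epithelium and of a subset of OSNs. Several of these genes are also known from other cells, Car2 from erythroid cells, Pde2a from brain and endothelium, and Ms4a genes from macrophages and lymphocytes.

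The arrays were alike in level, with medians of 8.0 to 8.13. Emx2 mRNA fell by 0.94 (SE 0.0817), a fold of 0.520, and its groups did not overlap (adjusted p = 0.0014, limma). Which of its exons the probes of this row cover was not examined. Omp, the marker of mature OSNs, was well represented at 12.9 in both groups and differed by -0.06 (95% interval -0.22 to 0.10). Gap43, of immature OSNs, differed by -0.23 (adjusted p = 0.564). None of the 206 genes in the 22 lists of related genes and cell type markers passed. Knockout replicate 2 stood apart, with a mean correlation to the other arrays of 0.979 against 0.988 to 0.991 for the rest, and values without it are given where they matter. By their Y-linked genes both 123Cre:Emx2(fl/+) controls and knockout replicate 3 read as female and the other arrays as male, so sex and control genotype cannot be told apart. The Y-linked mean was 6.62 in control replicate 4, against 5.41 in control replicate 1 and 5.61 in knockout replicate 3, and 9.16 to 10.3 in the male arrays. Xist in knockout replicates 1 and 4, which read as male, was 9.15 and 9.93, between the 6.85 to 7.29 of the other male arrays and the 12.5 to 13.1 of the female arrays.

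Genes of the OSNs themselves lay mostly below 0. The mean over 18 mature OSN genes was 11.311 to 11.455 in knockouts and 11.466 to 11.587 in controls, every knockout below every control. Of the 18, 15 had a difference below 0 (12 without knockout replicate 2) and the median was -0.11, against 0.004 for all rows tested. Groups were apart and lower for 5 of the 18, against 2.54% of all rows, and 4 were lower at an unadjusted p under 0.05, against 3.06%. The lowest p were those of Ano2 (difference -0.35, adjusted p = 0.116, limma) and Rtp2 (difference -0.40, adjusted p = 0.128). Of 15 immature OSN genes 14 were below 0, with and without knockout replicate 2, and the median was -0.14, with 4 apart and lower and 5 lower at an unadjusted p under 0.05. The mean of that list was 11.245 to 11.363 in knockouts and 11.356 to 11.529 in controls, where only knockout replicate 2 reached the lowest control. What these shifts contributed to the differences of the 9 genes was not tested. The centring on mature OSN genes given below adds the same 0.13 to the difference of every row. It therefore cannot tell what OSNs contributed to any single gene. The paper reports mature and immature OSN numbers as unaffected by conditional Emx2 deletion. Its methods scale to far more mature OSN-specific mRNAs than the 18 genes used here, so the measures are unlike.

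None of the 9 genes passed in either direction in limma over all rows, where 84 of 23410 rows, 0.359%, had an adjusted p under 0.05 (0.00854% higher and 0.35% lower in the knockout). At an unadjusted p under 0.05 there was 1, Car2, against 6.1% of all rows. For 0 of 9 were the groups free of overlap, against 4.52% of rows (1.98% higher and 2.54% lower in the knockout). The median difference of the 9 was -0.05, against 0.004 for all rows tested, with 3 above 0 and 6 below. The lowest difference was that of Car2 at -0.29 and the highest that of Trpm5 at 0.21. Every 95% interval lay between folds of 0.689 and 1.34, and none reached the fold of Emx2. Of the 9 rows, 5 lay above the dimmest 30% of tested rows by mean level, namely Gucy2d, Pde2a, Car2, Ms4a6c and Trpm5. The limit was a log2 level of 7.47, and Gucy2d (mean 7.57) and Trpm5 (mean 7.63) lay only just above it. Cnga3, Ms4a4a, Ms4a4b and Ms4a7 lay among the dimmest.

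**Figure D1:**
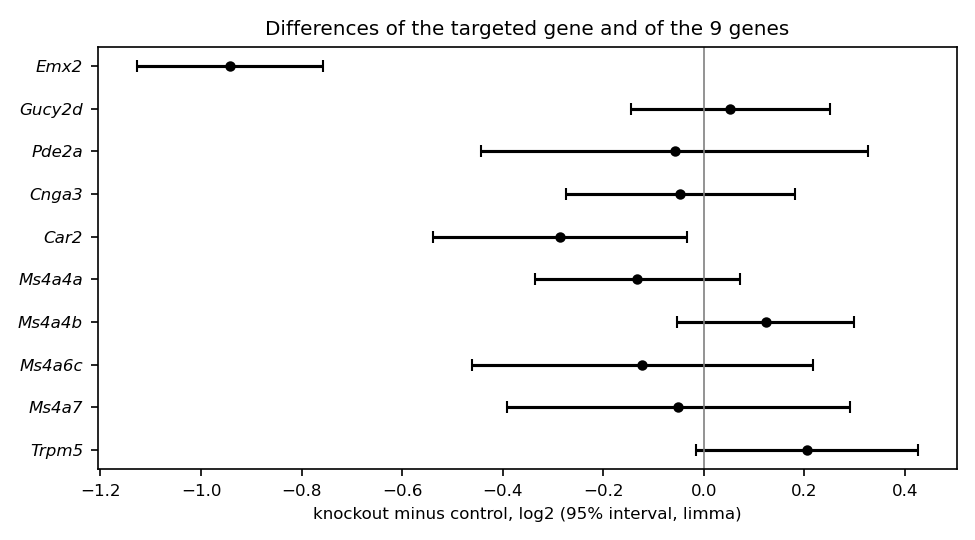
Difference in log2 level (horizontal axis, knockout minus control) of Emx2 and of the 9 genes, with 95% intervals from limma (4 knockout and 4 control arrays). The interval of Emx2 ends at -0.76, and those of the 9 genes lie between -0.54 and 0.43.

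Car2, which converts carbon dioxide to bicarbonate, had the largest difference. Its log2 values were 9.95, 10.42, 10.12 and 10.22 in knockout replicates 1 to 4, against 10.65, 10.44, 10.40 and 10.36 in control replicates 1 to 4. Of the 4 knockout arrays 3 lay below every control, and knockout replicate 2 lay within their range. The means were 10.18 ± 0.195 in knockout arrays and 10.46 ± 0.130 in control arrays (SD, n = 4 each), a change of -17.9% (difference -0.29, SE 0.111, 95% interval -0.54 to -0.03). That interval leaves out 0, while the adjusted p over all rows was 0.776 in limma, so the difference was not called. Without knockout replicate 2 the difference was -0.37 (SE 0.0964, adjusted p = 0.247), and over all 20 alternatives the lowest adjusted p was 0.16, with array weights.

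Car2 was lower in the knockout against each control genotype, at -0.33 against 123Cre:Emx2(fl/+) and -0.24 against Emx2(fl/fl), both with intervals that include 0. It was also lower among the first 4 arrays in the order of the titles (-0.36) and among the last 4 (-0.21). When 18 mature OSN genes were used to centre the arrays, the difference was -0.15 (adjusted p = 0.456). This step raises the difference of every row by the same 0.13. That scaling was modelled on the study's methods, which use a far larger set of genes. Erythroid genes, markers of another source of Car2, had list means of 6.90 to 7.25 in knockouts and 7.07 to 7.21 in controls, and 0 of 7 of them passed. Of these 7, 5 lay among the dimmest rows and 4 had a difference above 0. Alas2, above the dimmest 30%, differed by -0.27 (adjusted p = 0.961) and Rhag, among the dimmest, by 0.11 (adjusted p = 0.932). Knockout replicate 1, lowest in Car2, was the highest in erythroid mean at 7.25, while knockout replicate 4 was the lowest at 6.90. What blood cells contributed to the Car2 values was not tested.

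**Figure D2:**
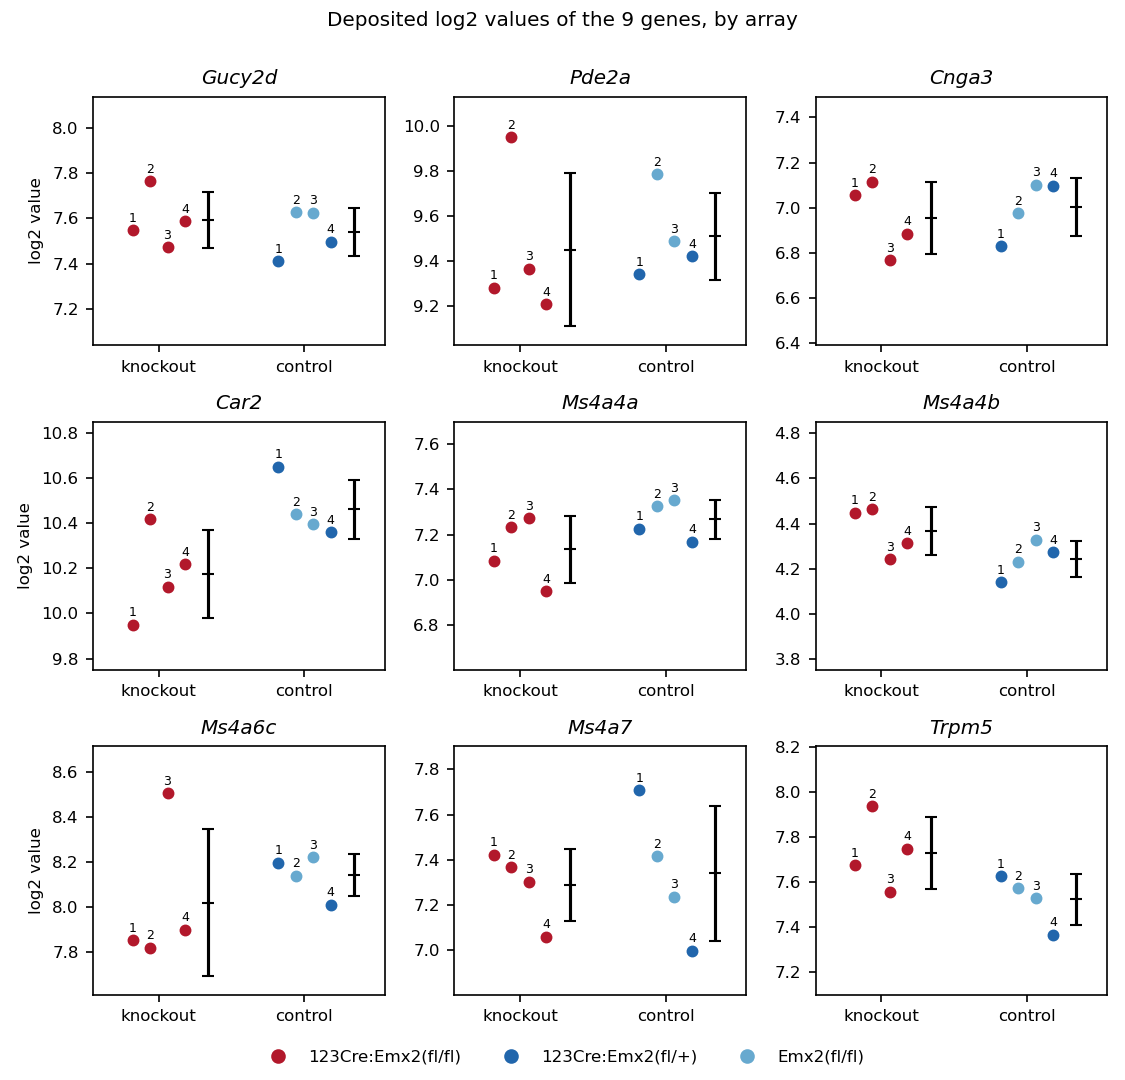
Log2 value (vertical axis, equally long in all panels) of the 9 genes in each knockout and control array, with replicate numbers and a colour for each genotype. Bars beside them give mean and SD. The groups overlap in every panel, and for Car2 only knockout replicate 2, at 10.42, lies within the control range of 10.36 to 10.65.

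The core of the guanylyl cyclase D pathway differed by less than its spread. Gucy2d, the receptor cyclase that defines these neurons, had values of 7.55, 7.77, 7.47 and 7.59 in the knockout arrays, against 7.41, 7.63, 7.63 and 7.5 in the controls. Knockout replicate 2 was the highest of all 8 and the other knockouts lay inside the control range. The difference was 0.05 (SE 0.0872, 95% interval -0.15 to 0.25) and became -0.005 without knockout replicate 2. It was 0.14 against 123Cre:Emx2(fl/+) and -0.03 against Emx2(fl/fl), and 123Cre:Emx2(fl/+) minus Emx2(fl/fl) was -0.17 (95% interval -0.44 to 0.10). These control genotypes also differ in sex, and with sex as a term the knockout difference was 0.01 (SE 0.0757).

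Pde2a, which breaks down cGMP and is switched on by it, was the most variable of the pathway. It had values of 9.28, 9.95, 9.37 and 9.21 in the knockout arrays and 9.34, 9.78, 9.49 and 9.42 in the controls. The second replicate of each group was its highest, and of the other knockouts 2 lay below every control. The difference of -0.06 (SE 0.169, 95% interval -0.44 to 0.33) became -0.22 (SE 0.109, adjusted p = 0.538) without knockout replicate 2 and 0.03 without control replicate 2. Endothelial genes, markers of another source of Pde2a, had their highest list mean of 9.41 in knockout replicate 2 too, with 8.85 to 9.41 in knockouts and 8.96 to 9.31 in controls. Olfactory bulb and brain genes had list means of 7.31 to 7.68 in knockouts and 7.39 to 7.95 in controls, with control replicate 2 the highest and knockout replicate 2 the lowest. The part of these cells in the values of Pde2a was not tested.

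Cnga3, the channel subunit that cGMP opens, averaged 6.96 ± 0.159 in knockout arrays and 7.0 ± 0.128 in control arrays (SD, n = 4 each). Its values were 7.05, 7.12, 6.77 and 6.89 in the knockout arrays, against 6.83, 6.98, 7.10 and 7.10 in the controls. Among the first 4 arrays both knockouts were above both controls, by a mean of 0.18, and among the last 4 both were below, with a difference of -0.27. The overall difference was -0.05 (SE 0.101, 95% interval -0.27 to 0.18).

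The Ms4a genes lie in a single cluster of the mouse genome. In assembly GRCm38.p6, 21 of the 22 protein-coding genes from the first to the last Ms4a gene carry an Ms4a symbol. Whether the remaining gene, Gm8369, belongs to the family was not examined. Ms4a7, Ms4a4a, Ms4a4c, Ms4a4b and Ms4a6c follow each other there without another coding gene between them. The family holds near copies, among them the Ms4a4 and Ms4a6 subgroups, so signal can be shared between their rows and each value is uncertain to that extent.

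Ms4a6c, of the Ms4a6 subgroup, varied most through a single array. Its values were 7.86, 7.82, 8.50 and 7.90 in the knockout arrays and 8.20, 8.14, 8.22 and 8.01 in the controls. Knockout replicate 3 was the highest of all 8, and the other 3 knockouts lay below every control. The difference was -0.12 (SE 0.15, 95% interval -0.46 to 0.22), and without knockout replicate 3 it was -0.28 (SE 0.0795, adjusted p = 0.40). Its relatives Ms4a6b and Ms4a6d, named after their values were seen, had their highest values in the same array, 7.45 for Ms4a6b and 8.18 for Ms4a6d.

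Ms4a7 ranged most widely in the controls. Its values were 7.42, 7.37, 7.30 and 7.06 in the knockout arrays, against 7.71, 7.41, 7.24 and 7.0 in the controls. Control replicates 1 and 4, of the same genotype, held both the highest and the lowest value, and all knockouts lay between them. The difference was -0.05 (SE 0.15, 95% interval -0.39 to 0.29).

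Ms4a4a had values of 7.08, 7.23, 7.27 and 6.95 in the knockout arrays, against 7.23, 7.32, 7.35 and 7.17 in the controls. Of the knockouts 2 lay below every control. Its difference was -0.13 (SE 0.0898, 95% interval -0.34 to 0.07), and the lowest adjusted p over its alternatives was 0.306, with array weights. Without knockout replicate 4 it was -0.07, and -0.18 without knockout replicate 3. Ms4a4b, known from T cells, had values of 4.45, 4.46, 4.24 and 4.31 in the knockout arrays, against 4.14, 4.23, 4.33 and 4.27 in the controls. Of the knockouts 2 lay above every control. Its difference was 0.12 (SE 0.0779, 95% interval -0.05 to 0.30), with 0.27 among the first 4 arrays and -0.02 among the last 4. Among the dimmest 30% of rows, where Ms4a4b lies, 71.0% of differences were above 0 and the median was 0.06, against 43.3% and -0.02 for the other rows.

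Macrophages express several Ms4a genes, so their markers were set beside these. The mean over 15 macrophage genes was 8.47, 8.78, 8.65 and 8.27 in knockout replicates 1 to 4 and 8.73, 8.64, 8.47 and 8.36 in control replicates 1 to 4. Knockout replicate 4 and control replicate 4 were the lowest of their groups in this mean, as they were for Ms4a7. The groups overlapped, 0 of 15 genes passed, 4 of the 15 rows lay among the dimmest, Aif1, Itgam, Cd163 and Ptprc (named for that alone), and the median difference was -0.01, with -0.09 without control replicate 4 and 0.08 without knockout replicate 4. The lymphocyte list had 8 of 9 rows among the dimmest, with means of 6.36 to 6.53 in knockouts and 6.32 to 6.36 in controls. What immune cells contributed to the Ms4a values was not tested.

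**Figure D3:**
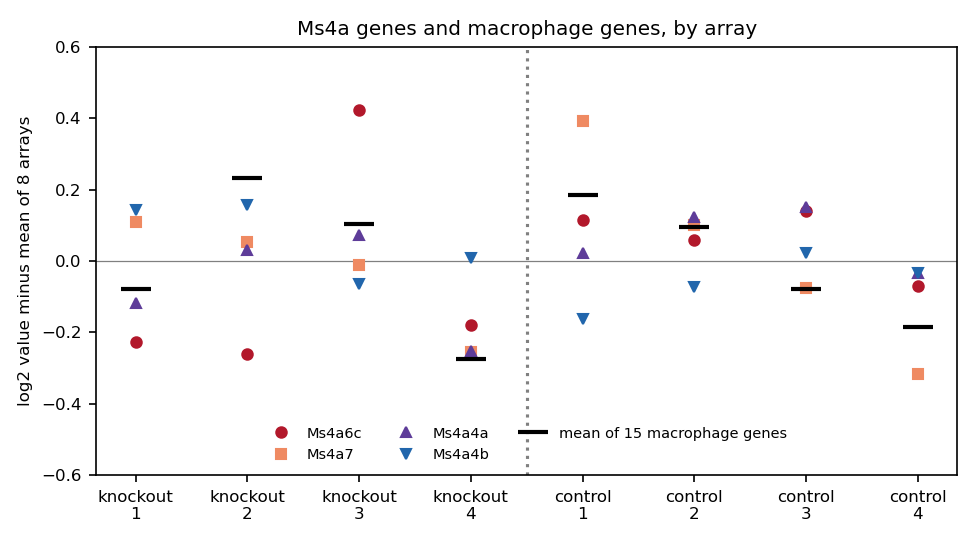
Log2 value minus the mean of the 8 arrays (vertical axis) of 4 Ms4a genes and of the mean over 15 macrophage genes, for each array. Ms4a7 and the macrophage mean are both lowest within their groups in knockout replicate 4 and control replicate 4, the macrophage mean is highest in knockout replicate 2 at 8.78, and Ms4a6c peaks in knockout replicate 3 at 8.50.

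Of the 18 other Ms4a genes listed, 15 had a row and 0 passed. The median difference was -0.01, with 0.07 without knockout replicate 4, 7 were above 0, and 13 of the 15 lay among the dimmest rows. Ms4a19 had the lowest p, with 3.87 ± 0.0646 in knockout arrays and 3.70 ± 0.0759 in control arrays (SD, n = 4 each) and no overlap (difference 0.17, adjusted p = 0.782). Ms4a5 followed at 0.21 (adjusted p = 0.818).

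Trpm5 had the highest difference of the 9 genes. Its log2 values were 7.68, 7.94, 7.56 and 7.75 in knockout replicates 1 to 4, against 7.63, 7.57, 7.53 and 7.37 in control replicates 1 to 4. Of the knockouts 3 lay above every control, and knockout replicate 3, the only knockout read as female, lay within their range. The means were 7.73 ± 0.159 in knockout arrays and 7.52 ± 0.112 in control arrays (SD, n = 4 each), a change of 15.3% (difference 0.21, SE 0.0974, 95% interval -0.02 to 0.43, adjusted p = 0.836). The value was 0.23 against 123Cre:Emx2(fl/+) and 0.18 against Emx2(fl/fl), and 0.21 among the first 4 arrays and 0.20 among the last 4. With sex as a term it was 0.17 (SE 0.0966, adjusted p = 0.921, limma). Without knockout replicate 2 it was 0.14 (SE 0.0843, adjusted p = 0.62). After centring on the mature OSN genes, which raises every row by the same 0.13, it was 0.34 (adjusted p = 0.211).

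Genes of Trpm5-expressing and tuft-like microvillar cells lay mostly above 0 as well, and none passed. Of 18 with a row, 16 had a difference above 0, against 51.6% of all rows, and 14 without knockout replicate 2. The median was 0.10, which was 0.05 without knockout replicate 2 and 0.15 without knockout replicate 3, and 9 of the 18 lay among the dimmest rows, of which 71.0% were above 0 over the whole table. At an unadjusted p under 0.05 there were 4 higher and 0 lower, against 3.04% and 3.06% of all rows. Of these 4, Chat, Avil and Gnat3 lay among the dimmest rows and only Pou2f3 lay above them. Chat, which makes acetylcholine, averaged 6.42 ± 0.103 in knockout arrays and 6.23 ± 0.0985 in control arrays (SD, n = 4 each), a difference of 0.20 (SE 0.0806, adjusted p = 0.789). Avil, an actin-binding protein of tuft cells, differed by 0.21 (SE 0.0922, adjusted p = 0.818).

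The other 2 were named after their values were seen. Pou2f3, the transcription factor that tuft-like cells require, had 8.58, 8.49, 8.23 and 8.55 in the knockout arrays and 8.33, 8.29, 8.25 and 8.12 in the controls (difference 0.21, SE 0.0943, adjusted p = 0.818). As for Trpm5, knockout replicates 1, 2 and 4 were above every control and knockout replicate 3, read as female, was not. Gnat3, the taste G protein, did not overlap between groups, with 5.28, 4.60, 4.67 and 4.55 in the knockout arrays against 4.44, 4.30, 4.51 and 4.44 in the controls, and knockout replicate 1 was far above the other 7 arrays (difference 0.35, adjusted p = 0.818). The list mean was 7.76 to 7.99 in knockouts and 7.71 to 7.78 in controls, highest in knockout replicates 1 and 2. Horizontal basal cell genes had a list mean of 9.62 to 10.5 in knockouts and 9.69 to 9.89 in controls, and were also highest in knockout replicates 1 and 2, at 10.1 and 10.5. Ciliated respiratory cell genes were above 0 in 9 of 9, against 51.6% of all rows, with list means of 10.2 to 10.5 in knockouts and 10.0 to 10.3 in controls. Their part in the Trpm5 values was not tested.

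**Figure D4:**
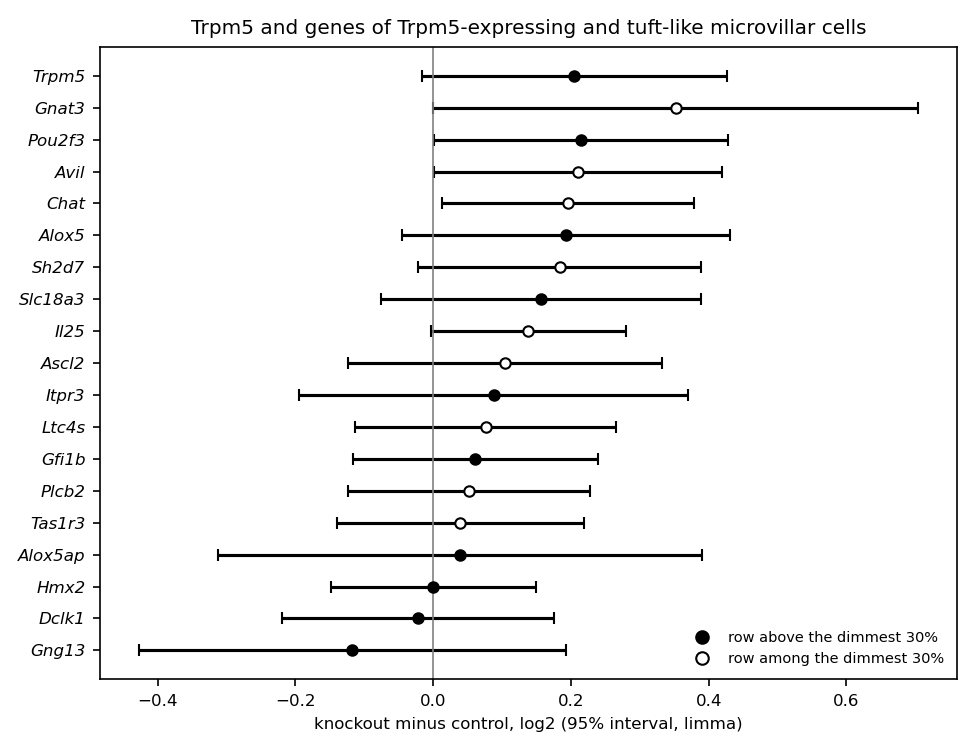
Difference in log2 level (horizontal axis, knockout minus control) of Trpm5 and of 18 genes of Trpm5-expressing and tuft-like microvillar cells, with 95% intervals from limma. Open circles are rows among the dimmest 30%. Of the 18 genes 16 lie above 0, and none passed over all rows.

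The other Trpm channels were looked at beside it. Of 7 other Trpm genes with a row 0 passed, with a median of 0.02 (0.09 without knockout replicate 2) and values from -0.02 to 0.17. The highest was that of Trpm4, the other calcium-activated member, with 8.91 ± 0.211 in knockout arrays and 8.74 ± 0.152 in control arrays (SD, n = 4 each, adjusted p = 0.961). Trpm6, a magnesium channel, differed by 0.11 (adjusted p = 1.0).

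Ligands and relatives of the cyclase were followed in the same fit. The gut peptides guanylin and uroguanylin, ligands of guanylyl cyclase D neurons in mice, are encoded by Guca2a and Guca2b. Guca2a averaged 6.60 ± 0.12 in knockout arrays and 6.42 ± 0.0709 in control arrays (SD, n = 4 each), a difference of 0.18 (adjusted p = 0.826). Nppb, a natriuretic peptide, differed by 0.20 (adjusted p = 0.795). All 6 ligands and activators with a row lay above 0, against 51.6% of all rows, and 5 of them after knockout replicate 2 was left out. None of the 6 passed, and 5 lay among the dimmest rows, of which 71.0% were above 0 over the whole table.

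Of 10 other guanylyl cyclase genes 0 passed, and 3 had groups that did not overlap (2 higher and 1 lower, against 1.98% and 2.54% of all rows). Gucy2c, the intestinal receptor of the same peptides, had 7.65, 7.73, 7.60 and 7.59 in the knockout arrays and 7.24, 7.37, 7.41 and 7.48 in the controls. Every knockout was above every control (difference 0.27, SE 0.0745, 95% interval 0.10 to 0.44, adjusted p = 0.447). Gucy1a2, a subunit of the soluble, nitric oxide-sensitive cyclase, went the other way, with 8.10, 8.25, 8.37 and 8.13 in the knockout arrays and 8.41, 8.46, 8.57 and 8.49 in the controls (difference -0.27, SE 0.0804, adjusted p = 0.538). Gucy2f, named after its values were seen, was the other gene without overlap. Gucy2g, the cyclase of Grueneberg ganglion neurons, which also use Cnga3 and Pde2a, differed by 0.08 (adjusted p = 1.0), and Gucy1b2, of a further type of non-canonical neuron, by 0.02. Slc17a6, a vesicular glutamate transporter in the list for that type, differed by -0.32 (adjusted p = 0.974). Its value was 10.29 in knockout replicate 2, the lowest of all 8 arrays. The other knockouts, at 10.96 to 11.34, lay inside the control range of 10.95 to 11.56.

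The cAMP side was set beside it. Of 5 other channel subunits 0 passed, and Cnga2 (named after its values were seen) and Cngb1 had groups that did not overlap and were lower, against 2.54% of all rows. Both are among the 5 mature OSN genes counted above as apart and lower. Cngb1, a subunit of the canonical OSN channel, averaged 9.69 ± 0.124 in knockout arrays and 9.94 ± 0.0636 in control arrays (SD, n = 4 each) without overlap (difference -0.25, adjusted p = 0.618). Cnga4, a modulatory subunit of the same channel, differed by 0.27 (adjusted p = 0.771), with 3 knockouts above every control. Of 23 other phosphodiesterases 0 passed and the median was -0.02, between -0.06 without knockout replicate 3 and -0.005 without control replicate 4. Pde8a, which is selective for cAMP, had the lowest p, with 10.40, 10.22, 10.50 and 10.51 in the knockout arrays and 10.72, 10.69, 10.84 and 10.79 in the controls (difference -0.35, SE 0.0831, adjusted p = 0.283). Pde6c, the enzyme of cone photoreceptors, differed by 0.20 (adjusted p = 0.794).

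Of 15 other carbonic anhydrases 0 passed, 8 were above 0 and the median was 0.05. That sign rests on single arrays, since the median was -0.07 once knockout replicate 2 was left out (6 above 0). Leaving out knockout replicate 3 gave -0.04, control replicate 1 gave -0.03 and control replicate 3 gave -0.01. Car11, a relative without catalytic activity, averaged 9.57 ± 0.12 in knockout arrays and 9.92 ± 0.156 in control arrays (SD, n = 4 each), without overlap (difference -0.35, SE 0.0981, adjusted p = 0.455). Car4, a membrane-anchored form, differed by -0.21 (adjusted p = 0.927).

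The control genotypes were compared in a fit of 3 genotypes. Of 27 tests, 9 genes in 3 contrasts, 0 passed over all rows. Between 123Cre:Emx2(fl/+) and Emx2(fl/fl) the widest gap was that of Pde2a at -0.25 (95% interval -0.81 to 0.30). Car2, Ms4a4a, Ms4a6c, Ms4a7 and Cnga3 were lower, and Trpm5 and Ms4a4b higher, in the knockout than in either control genotype, with intervals that all included 0.

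Likeness across arrays was taken as Pearson's r over the 8 arrays after each group mean was subtracted, as a description. Among all pairs of the 9 genes the closest was Cnga3 with Ms4a4b at 0.98, followed by Gucy2d with Pde2a at 0.801, which was 0.541 without knockout replicate 2. Cnga3 and Ms4a4b both lie among the dimmest rows, and both were high in knockout replicates 1 and 2. Out of 15379 brighter rows of a single gene, those most like Gucy2d were Spock1 (0.988), Gpr37 (0.976) and, next, Grm4. Those most like Car2 were Cars2 (0.991), Lipt1 (0.981) and Agtr1a (0.97), and those most like Trpm5 were 4931414P19Rik (0.986), Hirip3 (0.98) and Chchd5 (0.979). With Pde2a went Ccdc22, Bin1 and Twist2 (0.984 to 0.991), with Ms4a7 Cux1, Cyth4 and BC005624 (0.96 to 0.982), and with Ms4a6c Nfia, Zeb1 and Arhgap20 (0.967 to 0.979). Ms4a4a was most like Fcgr2b, Me1 and Gpc6 (0.959 to 0.979). Cnga3 was most like Dgcr6, Ccdc9b and Nlrc5 (0.96 to 0.965), and Ms4a4b most like Dgcr6, Gast and Nlrc5 (0.935 to 0.954). With 8 arrays and so many candidates, values this high come with the choice of the best, and the points share the arrays and their overall shifts.

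**Figure D5:**
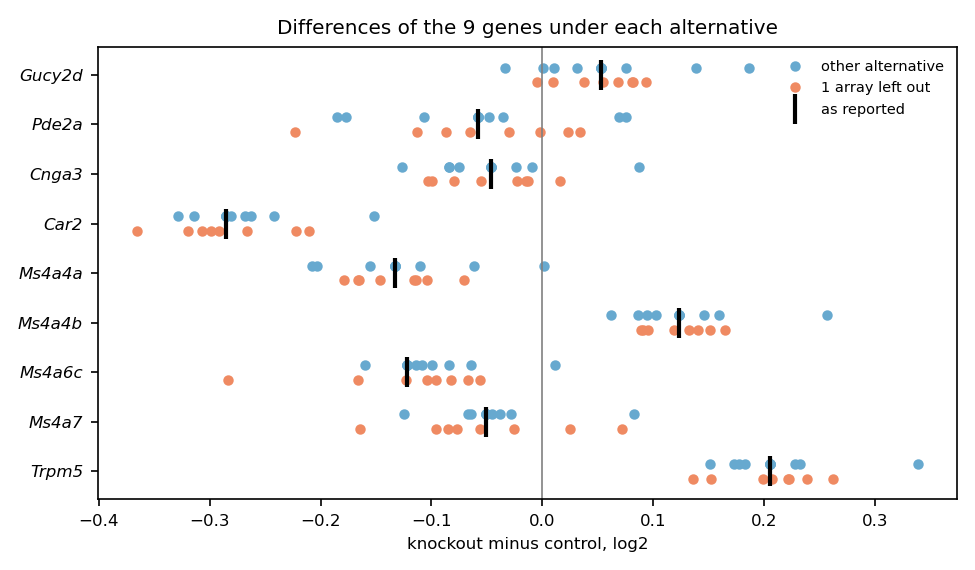
Difference in log2 level (horizontal axis, knockout minus control) of the 9 genes as reported (bar), with 1 array left out (lower points) and under the other alternatives (upper points). Across these alternatives Car2 stays below 0, from -0.37 to -0.15, and Trpm5 and Ms4a4b stay above 0, while the other genes cross 0 in at least 1 alternative.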

How the data were processed

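Total RNA of 8 olfactory mucosa samples was hybridised to Mouse Gene 1.0 ST arrays of Affymetrix. The deposited values are log2 expression per transcript cluster, which per the study's methods combines the probe sets of all exons of a gene. Affymetrix Expression Console stands in the submitters' processing notes, without a version. How background was corrected and arrays normalized: not given in the sources used here. Values were used as deposited. Groups came from the labels.

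All 23410 rows with a gene symbol (35557 in the table) were tested with limma 3.58.1 in R 4.3.3 (lmFit and eBayes, two-sided), knockout against control without covariates, with Benjamini-Hochberg adjustment over these rows and a threshold of 0.05. The number of arrays limits the precision. In simulated data, 23410 rows with the real means and spreads, 22 of 50 rows changed by 0.5 were recovered, 75 of 100 changed by 1 and 50 of 50 changed by 2, with 2 false calls. The simulated noise was normal, independent between rows and equal in spread across arrays. Shifts shared between rows and the outlying knockout replicate 2 were not modelled, so recovery in the real data can differ.

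The 9 genes, the lists of related genes and cell type markers and the tests were chosen with earlier results of these data known. Lists use the brightest row of a gene. Named were all 9 genes, Emx2, Omp and Gap43, and the 3 genes most like each of the 9. Up to 2 genes with the lowest p were named from the lists of related genes. The same was done for mature OSN, Trpm5-expressing cell, other non-canonical neuron and erythroid genes, but not for the remaining lists. Others are said to have been named after their values were seen. All 9 symbols matched the reference table by gene number. Coordinates are left out, as no source names the annotation's build.

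Alternatives were quantile normalization, centring on 18 mature OSN genes or on the array median, leaving out the dimmest 30% of rows, all rows, the methods' t-test, array weights, robust fitting with a variance trend, either control genotype alone, array order or sex as a term, and each sample left out.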

Additional observations from a re-analysis of the deposited data

Results flagged for a closer look

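A single array lay far from the other 3 of its group in 3 of 62 groups of values looked at, by the gap to its nearest neighbour relative to the range, and chance gives about 1 in 20. Ms4a6c was 8.50 in knockout replicate 3, against 7.82 to 7.90 in the other knockouts. The mean of the lymphocyte list was 6.53 in knockout replicate 2, against 6.36 to 6.37 in the other knockouts. The mean of guanylyl cyclase ligands and activators was 7.11 in control replicate 4, against 7.0 to 7.01 in the other controls.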

How the results depend on the processing

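Of 176 recomputed differences of the 9 genes, 0 passed, 163 kept their sign and 13 changed it. Centring on mature OSN genes moves the difference of every row by the same 0.13. It gave 0.076 for Pde2a, 0.0875 for Cnga3, 0.0012 for Ms4a4a, 0.0118 for Ms4a6c and 0.0831 for Ms4a7. With 123Cre:Emx2(fl/+) controls alone Pde2a was 0.0691, and with Emx2(fl/fl) controls alone Gucy2d was -0.0335. With 1 array left out, Gucy2d ran from -0.0049 to 0.0934, Pde2a from -0.2235 to 0.0337, Cnga3 from -0.1034 to 0.0163, Ms4a7 from -0.1647 to 0.0719, Ms4a4a from -0.18 to -0.07, Car2 from -0.37 to -0.21 and Trpm5 from 0.14 to 0.26. The count over all rows, 84, was 27 without the dimmest 30%, 28 with the methods' t-test, 224 with array weights, 32 with 123Cre:Emx2(fl/+) controls alone and 25 with Emx2(fl/fl) controls alone. It ran from 46 to 132 with 1 array left out. Of the listed genes 0 passed, with 1 array left out 0 to 2, those 2 being Rtp2 (-0.45) and S100a5 (-0.64) without knockout replicate 2. No paired analysis was possible because the labels give no numbers shared between groups. The cause of these changes was not tested.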
